A study of Mus musculus with 24 samples.

Results

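The Nr4a family of nuclear receptors was examined in hearts of mice after ischemic stroke of the brain. Its members were taken by gene symbol in the platform annotation as Nr4a1 (Entrez Gene 15370), Nr4a2 (Entrez Gene 18227) and Nr4a3 (Entrez Gene 18124), which gave 3 genes of the 24011 named genes tested, each with 1 row of values. All 3 are described, and none was removed by a filter on low values. Heart RNA of wild-type C57BL/6J mice, 8 weeks old in all groups, was hybridised to Affymetrix arrays. The mice had undergone MCAO, in which the middle cerebral artery is blocked to give an ischemic stroke, or a sham operation. Each operation was followed for 24 h or 72 h, which gave 4 groups of 6 arrays. No transgene, knockout or drug is named for any group, and the shams share the age and strain of the MCAO mice. A description field calls the 72 h samples 24 h; the 72 h of their titles was followed. The labels do not say that each array is a separate mouse, so each p-value measures only the spread among these arrays, which may be technical.

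The 3 Nr4a receptors (NUR77, NURR1 and NOR1 for Nr4a1, Nr4a2 and Nr4a3) are immediate-early transcription factors. Their ligand pocket is filled by bulky side chains, so their activity is set mainly by how much of each protein is made, and transcription of the genes is switched on within minutes by cyclic AMP, calcium and growth factor signals, in large part through the factor CREB bound to cyclic AMP response elements. They bind DNA as monomers or homodimers, and Nr4a1 and Nr4a2 also as heterodimers with retinoid X receptors. In heart and skeletal muscle they are known as genes induced by beta-adrenergic stimulation that act on glucose and lipid use, and in leukocytes and vessel walls as regulators of inflammation.

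The stretches of DNA just before the 3 transcription starts are shown because all 3 genes are known cyclic AMP targets. The windows matched 3 of 3 members and come from RefSeq on build GRCm38.p6. Printed are the 250 bases before the annotated start, 5′ to 3′ on the gene's own strand, which lie at chr15:101266596-101266845 (+ strand) for Nr4a1, chr2:57124004-57124253 (- strand) for Nr4a2 and chr4:48045055-48045304 (+ strand) for Nr4a3. Capitals mark the core of the cyclic AMP response element, TGACG, or CGTCA where it lies on the opposite strand.
Nr4a1: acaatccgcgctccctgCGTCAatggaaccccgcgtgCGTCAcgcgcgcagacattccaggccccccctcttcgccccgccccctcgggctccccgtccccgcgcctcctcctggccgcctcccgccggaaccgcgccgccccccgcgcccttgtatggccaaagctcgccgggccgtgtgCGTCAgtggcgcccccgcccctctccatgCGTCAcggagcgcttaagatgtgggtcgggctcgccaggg
Nr4a2: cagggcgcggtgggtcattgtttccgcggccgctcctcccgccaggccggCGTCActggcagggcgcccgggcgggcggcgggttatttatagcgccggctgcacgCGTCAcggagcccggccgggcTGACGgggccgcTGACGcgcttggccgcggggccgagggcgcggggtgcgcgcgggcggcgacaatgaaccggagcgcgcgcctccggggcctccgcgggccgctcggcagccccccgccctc
Nr4a3: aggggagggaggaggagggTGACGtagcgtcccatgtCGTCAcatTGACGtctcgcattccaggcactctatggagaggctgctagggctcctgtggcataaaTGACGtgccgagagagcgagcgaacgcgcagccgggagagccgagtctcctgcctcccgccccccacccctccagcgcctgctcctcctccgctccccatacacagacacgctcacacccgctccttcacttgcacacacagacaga
Each of the 3 windows held 4 cores in the 300 bases searched, which run from 250 bases before to 50 bases after the start. In Nr4a1 their first bases lay at -233, -213, -69 and -40 from the start, in Nr4a2 at -200, -144, -123 and -111, and in Nr4a3 at -231, -213, -205 and -147. Of all 32851 promoter windows of the same length 20.8% held at least 1 core and 76 (0.231%), the members' included, held 4 or more. The core contains a CG pair and is met more often in GC-rich DNA. Among the 6218 windows at least as rich in G and C as the window of Nr4a3 (64.7%), the lowest of the 3, 35 (0.563%) held 4 or more. Of 60 windows of 39 other nuclear receptor genes, out of 45 listed, 14 (23.3%) held at least 1 core. The most in any of them was 3, in Nr2e1. Of 38 windows of 25 immediate-early and CREB target genes, out of 31 listed, 24 (63.2%) held at least 1. The most was 3, in Dusp1, which encodes a phosphatase of MAP kinases. Sik1, Egr1, Egr3, Ier2, Fosl1 and Arc of that list had no window and were not searched. The full element TGACGTCA, which holds a core on either strand, was met in 1.79% of all windows and in none of the 3 members. The NGFI-B response element AAAGGTCA, the site Nr4a monomers bind, was met in 1.51% of all windows, and the letters AGAACA bound by each unit of the glucocorticoid receptor in 19% of them. Neither was found in a member on either strand. A TATA box (TATAAA, in 13.6% of all windows) was found in Nr4a2 alone among the 3, on the opposite strand with its first base at -164. These matches are of letters in a window and say nothing of a factor being bound.

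**Figure D1:**
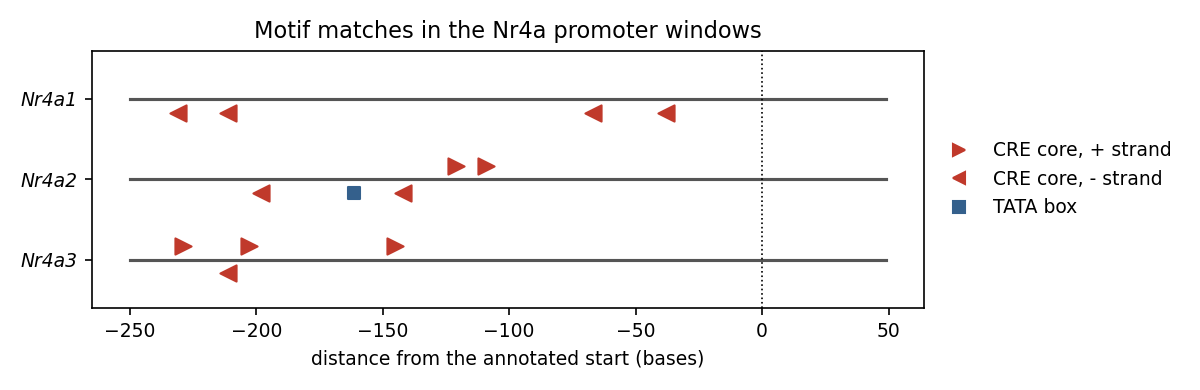
Positions of motif matches in the promoter windows of Nr4a1, Nr4a2 and Nr4a3, with distance from the annotated start in bases on the x axis. Red triangles are cores of the cyclic AMP response element and point in the direction of the strand that carries TGACG, and the blue square is a TATA box. Each gene has 4 red triangles, all before the start.

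Nr4a1 was strongly raised in the heart 1 day after stroke, Nr4a3 was raised by a smaller amount, and Nr4a2 did not pass the test. At 24 h Nr4a1 was 5.20-fold and Nr4a3 2.29-fold higher after MCAO than after sham operation, each in 6 of 6 MCAO arrays. At 72 h none of the 3 passed. So 2 of 3 members were called at 24 h, both higher, where 21.8% of all 24011 genes were called (11.1% higher and 10.8% lower). At 72 h 0 of 3 were called, where 2.35% of all genes were (1.17% higher and 1.19% lower). A gene was called when its adjusted p was under 0.05 in limma with Benjamini-Hochberg adjustment over all genes, and every value below is the deposited log2 value or a difference of such values.

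Nr4a1 encodes NUR77, the member best known from muscle and from monocytes. In the sham hearts at 24 h its lowest value was 6.26, the median 6.71 and the highest 6.93, and in the MCAO hearts at 24 h the lowest was 8.67, the median 9.02 and the highest 9.44. No array of one group reached the other group, and the gap between the highest sham array and the lowest MCAO array was wider than the whole range within either group. Here and for Nr4a3 below, the share of all genes whose groups do not overlap is not given. The means were 6.64 ± 0.25 and 9.02 ± 0.32 (log2, SD, n = 6 each), a difference of 2.38 (SE 0.30, limma adjusted p = 1.51e-05). An exact permutation test of the same arrays gave p = 0.00216, the smallest that 6 against 6 can give (two-sided, adjusted p = 0.00649 over 6 tests). By the size of its change Nr4a1 stood in place 3 of all 24011 genes at 24 h. The difference was 2.50 without replicates 5 and 6 of MCAO 24 h, which stood apart from the rest of their group (adjusted p = 6.1e-05).

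At 72 h the Nr4a1 values of the 2 operations overlapped. Sham hearts ran from 5.81 over a median of 6.72 to 8.33, and MCAO hearts from 7.14 over a median of 7.80 to 8.56. Only 2 of 6 MCAO arrays lay above the highest sham array, while 6 of 6 lay above the sham mean. The means were 6.93 ± 0.91 and 7.87 ± 0.54 (log2, SD, n = 6 each), a difference of 0.94 or 1.92-fold (SE 0.30, limma adjusted p = 0.123, exact permutation p = 0.0606, adjusted p = 0.0909). Its 95% confidence interval went from 0.31 to 1.57, so the data do not show that Nr4a1 was back at the sham level. The sham group at 72 h was the widest of the 4, spanning 5.73-fold between its arrays against 1.59-fold in the sham group at 24 h. Its highest array, replicate 6, decided the call: without it the difference was 1.22 (limma adjusted p = 0.011). That array also had the highest mean of the 4 atrial marker genes in its group (9.81, in a group that ranged from 5.81). Not all arrays of the group went this way. Sham 72 h replicate 2 had the next highest atrial mean (8.65), but its Nr4a1 of 6.38 lay below the group median. Sham 72 h replicate 5 had the lowest atrial mean, but its Nr4a1 lay above that median. The part of atrial tissue in the Nr4a1 value of replicate 6 was not tested.

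Nr4a3 encodes NOR1. It lay at 3.93 (lowest), 4.10 (median) and 4.50 (highest) in sham hearts at 24 h and at 4.67, 5.22 and 6.10 in MCAO hearts at 24 h. The sham values are near 3.96, the level that 95% of olfactory and vomeronasal receptor genes stayed under, and the lowest is below it. The fold change at 24 h thus starts from close to that level. The groups did not overlap, but the gap between them was small beside the spread of the MCAO arrays, which covered 2.69-fold. The means were 4.12 ± 0.19 and 5.32 ± 0.61 (log2, SD, n = 6 each), a difference of 1.20 (SE 0.22, limma adjusted p = 0.000671, exact permutation p = 0.00216, adjusted p = 0.00649). The highest arrays were replicates 6 and 5 at 6.10 and 5.95, the 2 that stood apart from their group over all genes. Without them the difference was 0.84 (limma adjusted p = 0.00397). It was 0.72 and no longer called (adjusted p = 0.365) when the first principal component of 1370 olfactory and vomeronasal receptor genes, sensory genes whose known role lies in the nose, was added to the fit. On this component every MCAO 24 h array lay between -3.01 and -0.15 and every other array between 0.22 and 1.28. It thus nearly coincides with the MCAO 24 h group, and this fit cannot separate the component from the group.

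At 72 h the mean of Nr4a3 was lower after MCAO than after sham operation, by a difference that did not pass. Sham hearts ranged from 4.10 over 4.58 to 5.29 and MCAO hearts from 4.17 over 4.20 to 4.62. The MCAO arrays lay wholly within the sham range, and 2 of 6 were above the sham mean. The difference was -0.26 (SE 0.22, 95% confidence interval -0.73 to 0.20, limma adjusted p = 0.877).

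Nr4a2 encodes NURR1, which is needed for dopamine neurons to form. Its arrays lay at 4.28, 4.62 and 4.87 (lowest, median, highest) in sham and at 4.67, 4.76 and 6.08 in MCAO hearts at 24 h. The groups overlapped in most arrays, and the higher MCAO mean came chiefly from replicates 3 (6.08) and 1 (5.26), the other 4 being between 4.67 and 4.80. The means were 4.63 ± 0.21 and 5.04 ± 0.55 (log2, SD, n = 6 each), a difference of 0.41 (SE 0.17, limma adjusted p = 0.0809, exact permutation p = 0.102, adjusted p = 0.122). Without MCAO 24 h replicate 3 the difference was 0.20 (adjusted p = 0.178). Leaving out replicate 5 gave 0.48 (adjusted p = 0.0473), leaving out replicate 6 gave 0.48 (adjusted p = 0.0444) and leaving out both gave 0.59 (adjusted p = 0.0175), so whether Nr4a2 was called turned on single arrays. With the receptor component in the fit the difference was 0.95 (SE 0.28, adjusted p = 0.0834).

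At 72 h Nr4a2 varied least of all. Sham arrays lay between 4.41 and 4.71 with a median of 4.57, and MCAO arrays between 4.57 and 4.87 with a median of 4.70. The ranges overlapped, with 3 of 6 MCAO arrays above the highest sham array. The difference was 0.15 (SE 0.17, 95% confidence interval -0.20 to 0.49, limma adjusted p = 0.959, exact permutation p = 0.0368, adjusted p = 0.0736). The limma SE and interval rest on 1 spread shared by all 4 groups, of which MCAO 24 h had an SD of 0.55. The sham and MCAO groups at 72 h each had an SD of 0.11, so that interval is wide for them. The permutation test used the arrays at 72 h only.

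**Figure D2:**
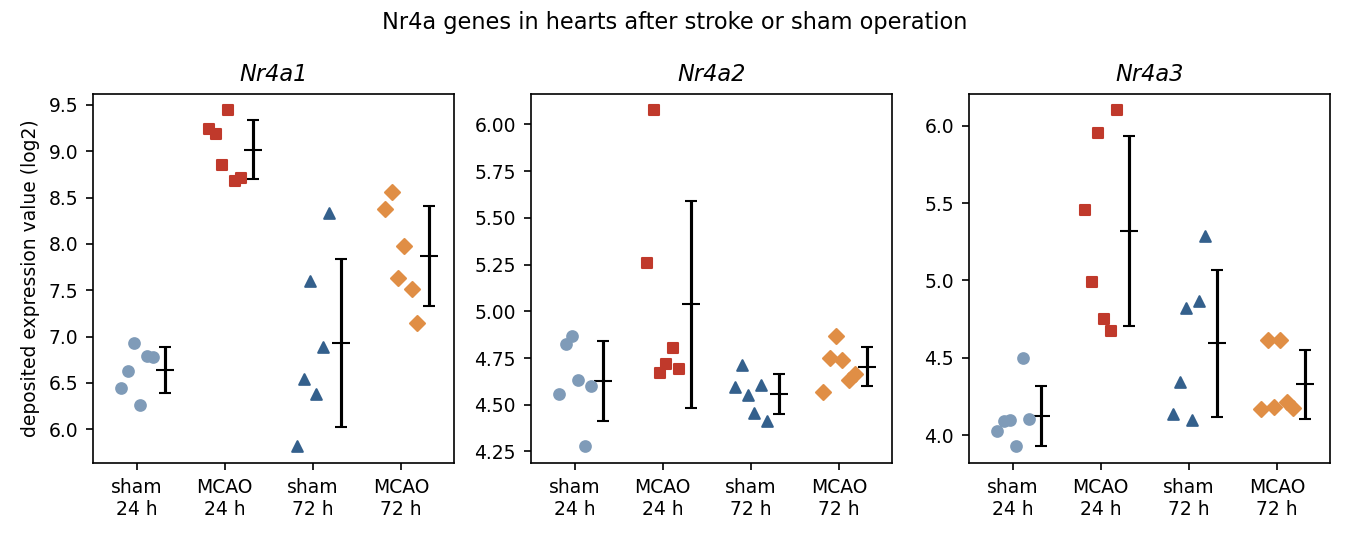
Deposited log2 value of Nr4a1, Nr4a2 and Nr4a3 on each of the 24 arrays, by group, with the group mean and SD (n = 6) as a black bar beside the points; each panel has its own y axis. Nr4a1 and Nr4a3 do not overlap between sham and MCAO at 24 h, while at 72 h all 3 genes overlap. The share of all genes that do not overlap is not given.

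The MCAO effect of each member was smaller or less positive at 72 h than at 24 h, and this change was called for Nr4a3. For Nr4a3 the MCAO effect was 1.46 lower at 72 h than at 24 h (SE 0.32, limma adjusted p = 0.0221), a difference called for 1.79% of all genes, 0.800% in this direction and 0.991% in the other. It was 1.11 lower without MCAO 24 h replicates 5 and 6 (adjusted p = 0.0231) and 1.00 lower, no longer called, with the receptor component in the fit (adjusted p = 0.399). For Nr4a1 the effect was 1.44 lower (SE 0.43, 95% confidence interval of the change -2.33 to -0.55), nearly the same size, and did not pass (limma adjusted p = 0.0787), except without sham 72 h replicate 1 (1.66 lower, adjusted p = 0.0426). For Nr4a2 it was 0.26 lower (SE 0.24, adjusted p = 0.603). Compared directly, the MCAO hearts at 72 h had less Nr4a1 than those at 24 h (by 1.15, SE 0.30, limma adjusted p = 0.019) and less Nr4a3 (by 0.99, SE 0.22, adjusted p = 0.00767), in a comparison that called 10.4% of all genes (5.36% lower at 72 h) and that uses the same MCAO 24 h arrays as the comparison with sham at 24 h. With the receptor component in the fit neither passed: Nr4a1 was lower by 1.51, a larger change with a larger SE of 0.52 (adjusted p = 0.214), and Nr4a3 by 0.55 (SE 0.37, adjusted p = 0.540). As that component nearly coincides with the MCAO 24 h group, the fits with it cannot separate the component from the group. With array weights Nr4a1 was lower by 1.24 (SE 0.43) and did not pass (adjusted p = 0.083). Between the sham groups, where 0.0208% of all genes were called, no member was called: Nr4a1 differed by 0.29 (SE 0.30, 95% confidence interval -0.34 to 0.92), Nr4a2 by -0.07 (SE 0.17, -0.42 to 0.27) and Nr4a3 by 0.47 (SE 0.22, 0.0062 to 0.93), 72 h minus 24 h, each with a limma adjusted p of 1.00. The Nr4a3 interval lies just above 0 before adjustment, so an equal level in the 2 sham groups is not shown.

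The order of the 4 groups was not the same for the 3 genes. Nr4a1 was highest in MCAO at 24 h, followed by MCAO at 72 h, sham at 72 h and sham at 24 h. The step from MCAO 24 h to MCAO 72 h passed the test, whereas the steps from MCAO 72 h to sham 72 h and from there to sham 24 h did not, the first with an interval that lies above 0 before adjustment. MCAO at 72 h did exceed sham at 24 h, by 1.23 (SE 0.30, limma adjusted p = 0.0222), in a comparison that called 3.19% of all genes and crosses the times. Nr4a3 was highest in MCAO at 24 h, then in sham at 72 h, MCAO at 72 h and sham at 24 h. MCAO at 24 h exceeded sham at 72 h by 0.73 (SE 0.22, limma adjusted p = 0.0258), where 18.9% of all genes were called, and no pair of the other 3 groups passed. Nr4a2 had MCAO at 24 h above MCAO at 72 h, sham at 24 h and sham at 72 h, with no neighbours that passed the test; its ends, MCAO at 24 h and sham at 72 h, differed by 0.48 (SE 0.17, limma adjusted p = 0.046).

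Nr4a1 and Nr4a3 were also compared array by array, after the group means were removed. Over the 24 arrays their deviations had r = 0.44 (Spearman rho = 0.44, permutation p = 0.0494 and 0.047, adjusted p = 0.148 and 0.141 over the 3 pairs of members). Without the 2 arrays with the farthest Nr4a1 values, sham 72 h replicates 1 and 6, r was 0.19 (permutation p = 0.379). The pooled r thus depended on those arrays, and also on MCAO 24 h replicates 5 and 6, as given below. The correlation of the 2 genes was also taken within each group, without a test between groups. In sham hearts at 72 h the 2 genes followed each other closely (r = 0.92, exact permutation p = 0.0139, adjusted p = 0.0417, and rho = 0.89, exact p = 0.0333). Over the 4 arrays left without the 2 farthest r was 0.81. The adjustment covers the 3 pairs within this group only and not the same tests in the other groups. In MCAO hearts at 24 h r was -0.40 (exact permutation p = 0.403): replicates 5 and 6 had the highest Nr4a3 but only 8.85 and 8.71 of Nr4a1, below the group median. In sham hearts at 24 h r was 0.57 and in MCAO hearts at 72 h 0.56 (exact permutation p = 0.156 and 0.225), and without the 2 farthest arrays of each 0.03 and 0.10. Without MCAO 24 h replicates 5 and 6 the pooled r was 0.75 (permutation p = 0.00139, adjusted p = 0.00417). Leaving them out was chosen for the correlations after the data were seen. They are arrays that went against the relation, so no conclusion is drawn from this p-value. The correlation of Nr4a2 did not pass with Nr4a1 (r = 0.03, rho = 0.06, permutation p = 0.862 and 0.756) or with Nr4a3 (r = -0.27, rho = -0.15, permutation p = 0.487 and 0.537).

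**Figure D3:**
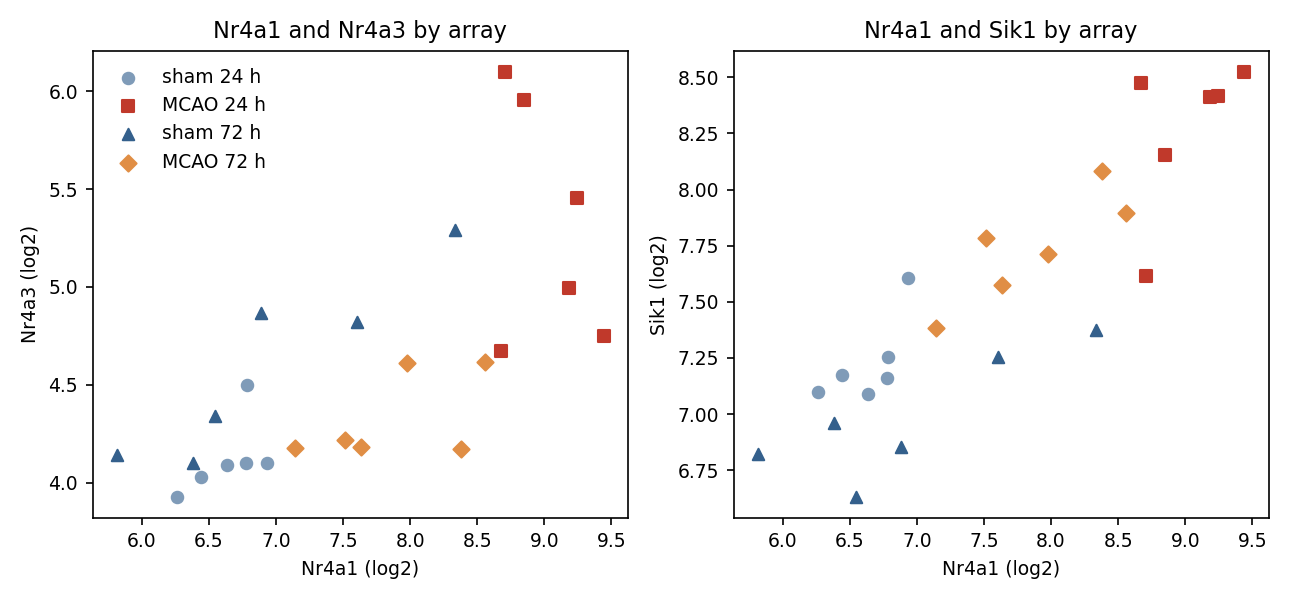
Each point is 1 of the 24 arrays, with Nr4a1 on the x axis and Nr4a3 (left) or the kinase gene Sik1 (right) on the y axis, all deposited log2 values; colours and shapes give the group. The 2 MCAO 24 h arrays with the highest Nr4a3, 5.95 and 6.10, had Nr4a1 below the median of their group (8.85 and 8.71 against 9.02). Over the 24 arrays Sik1 follows Nr4a1 with r = 0.90.

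Nr4a1 and Nr4a3 led the nuclear receptors at 24 h. Of the 45 other nuclear receptor genes 41 were measured. By the log2 change at 24 h Nr4a1 stood in place 1, Nr4a3 in place 2 and Nr4a2 in place 6 of the 44 nuclear receptors measured, members included. Among the 41, 4 were called higher and 6 lower (11.1% and 10.8% of all genes), with a median change of 0.03 against 0.01 over all genes. Vdr, the vitamin D receptor, rose by 0.79 (SE 0.13), and Pparg, which drives fat cell formation and lipid storage, by 0.68 (SE 0.10), both less than Nr4a3. Nr3c1, the glucocorticoid receptor, fell by 0.53 (SE 0.10). Nr5a1, the steroidogenic factor SF1, was called at -0.26 (SE 0.05), but its mean of 3.77 lies under 3.96, the level that 95% of the receptor genes stayed under, so no fall in expression is read from it. At 72 h Nr4a1 still stood in place 1 by size though not called, Nr4a2 in place 10 and Nr4a3 in place 41. Of the 41 others Pparg rose (0.48, SE 0.10) and Nr3c1 fell (-0.41, SE 0.10), with Rora at 0.37 (SE 0.11, adjusted p = 0.0826) and Vdr at 0.37 (SE 0.13, adjusted p = 0.164).

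**Figure D4:**
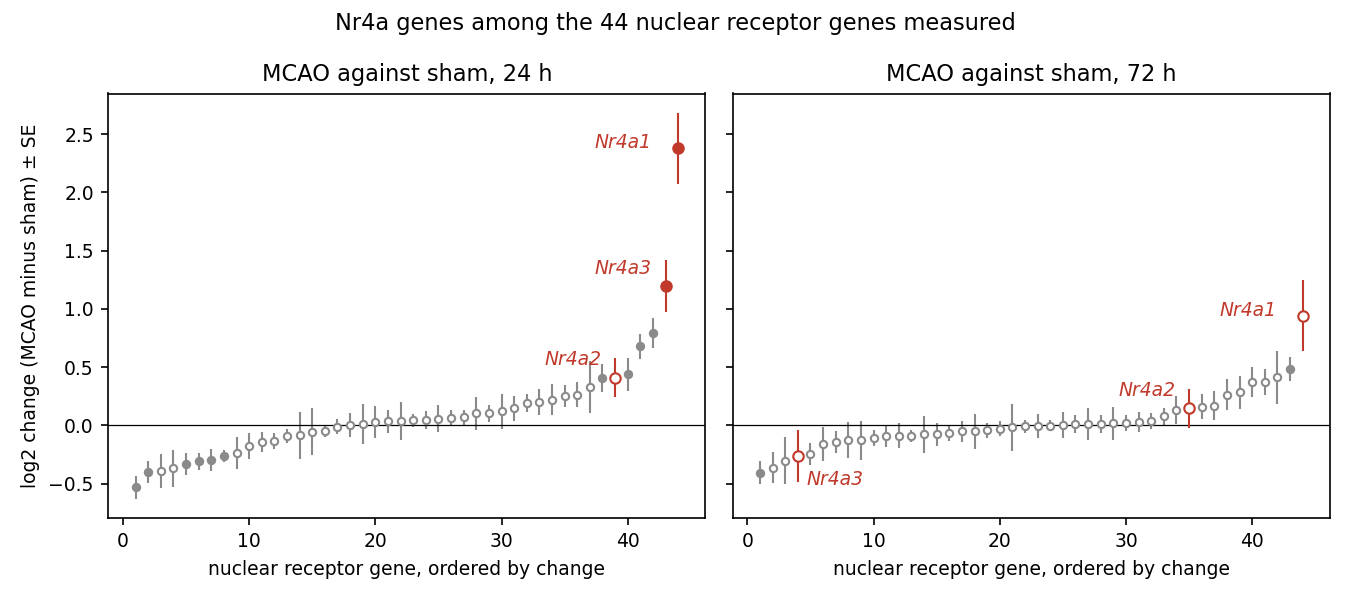
Log2 change with its SE for the 44 nuclear receptor genes measured, in order of size along the x axis, for MCAO against sham at 24 h (left) and 72 h (right). Red points are the Nr4a genes and filled points have an adjusted p under 0.05; Nr4a1 (2.38) and Nr4a3 (1.20) stand at the top at 24 h, and no Nr4a gene is filled at 72 h.

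None of the retinoid X receptors, the heterodimer partners of Nr4a1 and Nr4a2, was called higher. Of 3 measured, Rxrg fell by 0.40 at 24 h (SE 0.10, adjusted p = 0.00511), where 11.1% of all genes rose and 10.8% fell. Rxra changed by 0.05 (SE 0.08, adjusted p = 0.711) and Rxrb by 0.25 (SE 0.10, adjusted p = 0.0609). At 72 h none of the 3 passed, where 2.35% of all genes did. With 3 genes, such counts are not set apart from these shares.

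Genes of the routes that switch Nr4a genes on were mostly lower or not called at 24 h. Of 20 upstream genes measured (CREB and its CRTC coactivators, protein kinase A, calcineurin, MEF2 factors and the histone deacetylases that restrain MEF2) 1 rose and 6 fell, where 11.1% of all genes rose and 10.8% fell, with a median of -0.19 against 0.01 over all genes. Mef2a, a muscle transcription factor, fell by 0.53 (SE 0.12), Prkacb, a catalytic subunit of protein kinase A, fell by 0.80 (SE 0.19), Hdac9, a repressor of MEF2, fell by 0.47 (SE 0.11) and the calcium-dependent kinase gene Camk2d fell by 0.64 (SE 0.18). The gene that rose was Crtc2, a coactivator of CREB (0.31, SE 0.11, adjusted p = 0.0412), and it did not pass without MCAO 24 h replicates 5 and 6. At 72 h Crtc2 was also the gene called higher of the 20 (0.40, SE 0.11, adjusted p = 0.0418), and none was called lower, with Srf at -0.33 (SE 0.13), Mef2c at -0.25 (SE 0.10) and Camk2d at -0.33 (SE 0.18). Creb1 itself changed by -0.10 (SE 0.13) at 24 h and -0.01 (SE 0.13) at 72 h. RNA levels of these genes do not measure the activity of the proteins.

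Other immediate-early and CREB target genes moved in both directions at 24 h. Of 31 measured 8 rose and 4 fell at 24 h (11.1% and 10.8% of all genes), and 4 rose and 0 fell at 72 h (1.17% and 1.19% of all genes). The median change was 0.06 at 24 h and 0.11 at 72 h, against 0.01 and 0.00 over all genes. Those with the smallest p at 24 h were Atf3, a stress-induced repressor (1.03, SE 0.13), Fosl2, an AP-1 subunit (0.69, SE 0.09), Csrnp1 (1.35, SE 0.19) and the clock gene Per1 (1.59, SE 0.22). None of the 31 rose by as much as Nr4a1, and 2 of them, Per1 and Csrnp1, by more than Nr4a3. The early-response genes Fos (-0.28, SE 0.14, adjusted p = 0.142), Jun (-0.40, SE 0.21, adjusted p = 0.188) and Egr1 (0.06, SE 0.15, adjusted p = 0.803), which are induced by many of the same signals, were not called and were chosen for mention after their values were seen. The 4 that fell were Pde4b and Pde4d, which break down cyclic AMP (by 0.50, SE 0.07, and by 0.56, SE 0.12), Fosb (by 0.22, SE 0.07) and Dusp2 (by 0.37, SE 0.12). Fosb had a mean of 4.02, near the 3.96 that 95% of the receptor genes stayed under. At 72 h Fosl2 (0.62, SE 0.09), Sik1 (0.76, SE 0.15), Zfp36, which destabilises inflammatory mRNAs (0.90, SE 0.20), and Per1 (0.94, SE 0.22) were higher, where Nr4a1, not called, was at 0.94 with the larger SE of 0.30. Like Nr4a3, Atf3 and Ier2 had a smaller effect at 72 h than at 24 h (differences of -0.74, SE 0.18, limma adjusted p = 0.0391, and -0.64, SE 0.16, adjusted p = 0.044). Pde4b went the other way (0.56, SE 0.11, adjusted p = 0.01). In this comparison 1 of the 31 was thus called higher and 2 lower (0.991% and 0.800% of all genes).

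**Figure D5:**
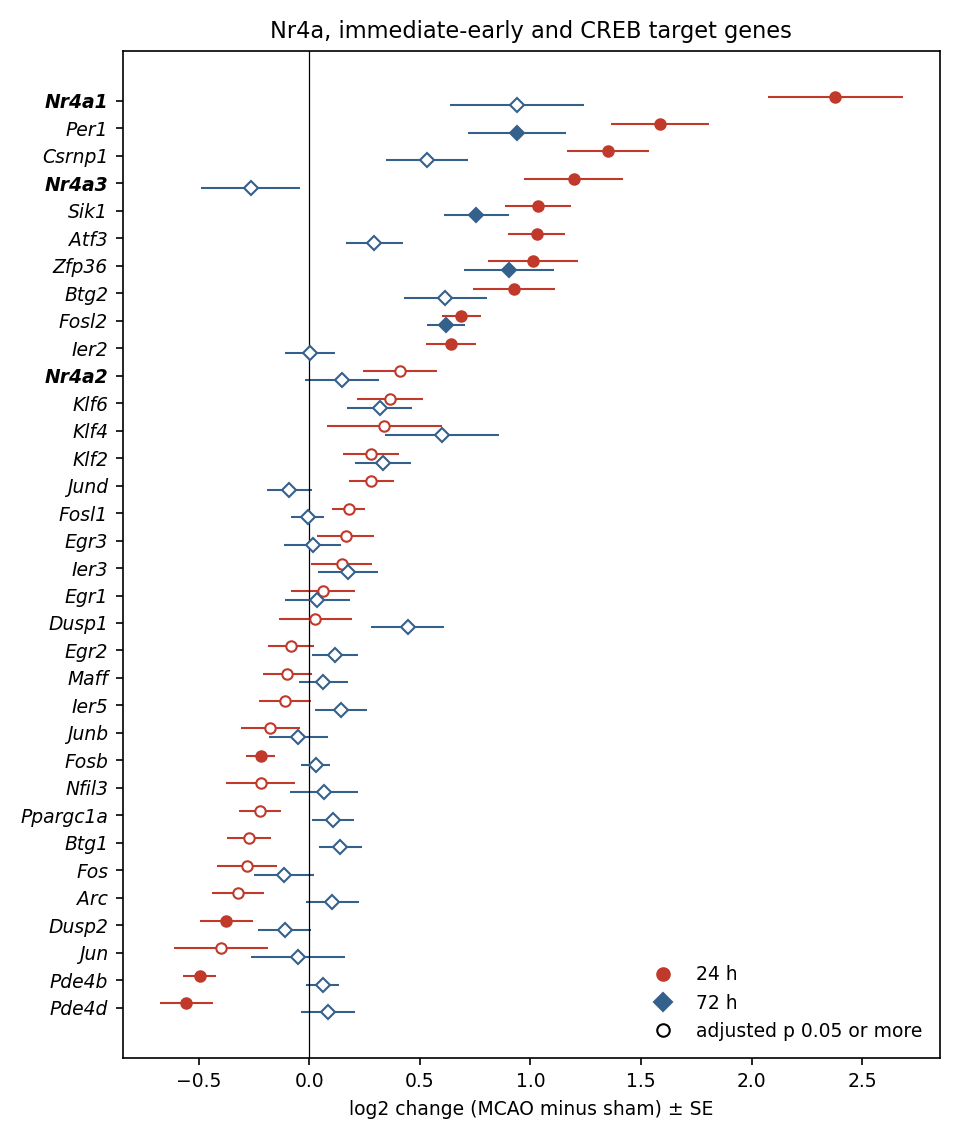
Log2 change with its SE for MCAO against sham at 24 h (red circles) and 72 h (blue diamonds) for the 3 Nr4a genes (bold) and the 31 immediate-early and CREB target genes, ordered by the change at 24 h; open symbols did not pass the test. Nr4a1 is at the top, Nr4a3 changes side between the times, and Fos, Jun and Egr1 have open symbols at both.

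Genes reported as Nr4a targets in muscle and liver metabolism moved in both directions. Of 16 measured of 19, 2 rose and 4 fell at 24 h (11.1% and 10.8% of all genes), and 2 rose and 3 fell at 72 h (1.17% and 1.19% of all genes), with medians of -0.06 and -0.18 against 0.01 and 0.00 over all genes. Cd36, a fatty acid transporter, rose (0.27, SE 0.05, at 24 h and 0.20, SE 0.05, at 72 h), as did Phka1, a subunit of phosphorylase kinase (0.49, SE 0.12, and 0.65, SE 0.12). Hk2, the hexokinase that traps glucose in muscle, fell by 0.63 at both times (SE 0.11). The glycolytic enzyme genes Eno3 (-0.94, SE 0.10) and Pgam2 (-0.64, SE 0.14) fell at 72 h, and Ppargc1b, a coactivator for mitochondrial genes, at 24 h (-0.53, SE 0.13). Eno3 had also fallen at 24 h (-0.32, SE 0.10), as had Bpgm (-0.49, SE 0.17). Of 6 Nr4a2 targets of catecholamine neurons, 1 was called higher and 2 lower at 24 h, where 21.8% of all genes were called. Gch1, which makes the cofactor of tyrosine hydroxylase, rose (0.39, SE 0.09). The transporter gene Slc18a2 (-0.30, SE 0.07) and Th (-0.16, SE 0.05) had means of 3.91 and 3.74, under the 3.96 that 95% of the receptor genes stayed under, so their lower values cannot be read as falls in expression. None of the 6 passed at 72 h, where Ret was at -0.52 (SE 0.15, adjusted p = 0.0733).

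The genes whose values were most like those of Nr4a1 over the 24 arrays, by Pearson r among 12340 named genes, were Irs2, an adaptor of the insulin receptor (r = 0.91), Sik1, a kinase gene induced by cyclic AMP (0.90), Ccrl2, a chemoattractant receptor (0.87), the nuclear receptor coactivator gene Ncoa3 (0.86) and the endothelial factor Sox17 (0.84). These coefficients are descriptions over arrays of 4 groups that share the differences between groups. All 5 rose at 24 h, where 11.1% of all genes did, Irs2 by 1.60 (SE 0.17) and Ccrl2 by 1.47 (SE 0.13). At 72 h 4 of them rose, where 1.17% of all genes did, and Irs2 was at 0.54 (SE 0.17, limma adjusted p = 0.101). As the 5 were picked for likeness to Nr4a1 over these same arrays, the choice largely set these counts. They are not a separate result. Nr4a3 stood in place 176 of this order (r = 0.70) and Nr4a2 in place 1533 (r = 0.46). The genes most like Nr4a3 were Dgat1, which makes triglyceride (r = 0.82), Uap1l1 (0.81), Hectd3 (0.80), Snhg4 (0.79) and Kptn (0.79), and those most like Nr4a2 were Gda (0.76), Txlng (0.75), Wt1 (0.74), Taf1c (0.73) and Tubgcp4 (0.69). No gene stood in more than 1 of these lists.

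The hearts showed the markers of heart muscle in every group. The mean of 8 cardiomyocyte markers ranged from 12.77 to 12.85 in sham and 12.48 to 12.80 in MCAO arrays at 24 h, and 0 of 8 rose and 2 fell (Myh6 and Ryr2). For this count and those of the other markers below, 11.1% of all genes rose and 10.8% fell at 24 h. In such bulk samples fewer cells of a type and less RNA per cell cannot be told apart. Nr4a1 is also expressed in nonclassical monocytes, macrophages and endothelium. Of 7 markers of nonclassical monocytes 0 rose and 1 fell at 24 h, with means of 4.68 to 4.84 in sham and 4.63 to 4.85 in MCAO arrays, and of 7 macrophage markers none passed (6.75 to 7.08 and 6.27 to 6.94). Of 6 endothelial markers 2 rose and 1 fell (8.78 to 9.14 and 8.82 to 8.98). Of 6 neutrophil markers 1 rose, and 5 of them, S100a8, S100a9, Ly6g, Mmp8 and Cxcr2, had a mean under 3.96, the level that 95% of the receptor genes stayed under. The 4 T cell markers Cd3d, Cd3e, Cd3g and Cd8a and the B cell markers Cd79a, Cd79b and Ms4a1 were under it too. So were Cd300e and Pou2f2, 2 of the 7 markers of nonclassical monocytes. Fibroblast markers had 3 of 6 lower (7.75 to 8.19 and 6.999 to 7.68) and smooth muscle markers 2 of 4 (6.72 to 7.34 and 6.47 to 6.65). The 4 atrial markers were not called at 24 h but covered 5.56 to 7.39 in sham and 6.16 to 10.63 in MCAO arrays. The part of atrial tissue and of these cell types in the Nr4a values was not tested.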

How the data were processed

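Heart RNA for the 24 arrays was isolated with Trizol, and biotin-labelled cRNA was made from it, per the labels' protocols. The deposited table holds log2 values, 1 per Entrez Gene identifier and array, from 2.78 to 13.5; the log2 base was inferred from that range. The deposited arrays share 1 distribution: after sorting, 23 columns hold the same values and the remaining one departs by no more than 0.00191, as quantile normalization gives. The submitters' processing notes name HOMER; how probes were summarized, and on which build, is not given in the sources used here. No detection calls were analysed, so low values carry no detection limit, and the number of arrays limits the precision.

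Of 24973 identifiers 24015 had 1 symbol in the platform annotation, 0 had several and 958 had none there. Where identifiers shared a symbol, only that of highest mean entered, leaving 24011 genes, named by RefSeq's current symbol for 23920. Limma 3.58.1 in R 4.3.3 fitted 4 group means to all 24 arrays (20 residual degrees of freedom), and SE and 95% intervals are moderated. Exact permutation tests and within-group correlations (100000 permutations within groups) were run in Python with scipy 1.17.1. The fit and the permutations were checked on simulated data. The members, gene lists, design and alternatives were chosen with earlier results of these data known. Named were the 3 members, up to 4 genes with the smallest p per list, every called gene where a list had at most 5, and the 5 genes most like each member by Pearson r, leaving out predicted genes and those with a mean under 3.96.

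Arrays correlated with the mean of the rest of their group at r between 0.985 and 0.997 over all genes, except MCAO 24 h replicates 5 (0.976) and 6 (0.971). The replicate numbers did not pair the arrays: over 36 same-number pairs the deviations from group means had r between -0.23 and 0.15, and 3 were over 0.1. Alternatives were another sample set, prior, normalization, filter and identifier rule, array weights, the replicate block, each array left out, both outlying arrays left out and a covariate from the receptor genes.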

Additional observations from a re-analysis of the deposited data

Results flagged for a closer look

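In sham hearts at 24 h, the highest Nr4a3 value, 4.50 in replicate 4, stood apart from the other 5 arrays by a gap that passed Dixon's test. Such a test picks out about 1 in 20 groups by chance, and 12 groups of member values were examined. Without that array the Nr4a3 difference at 24 h stayed called, as in all 24 fits that left out 1 array.

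The MCAO effect differed between the times, by a limma test of the difference itself, for Nr4a3 (-1.46, 72 h minus 24 h, adjusted p = 0.0221). Among the genes of the lists it also differed for Ier2 (-0.64, adjusted p = 0.044), Atf3 (-0.74, adjusted p = 0.0391), Eno3 (-0.62, adjusted p = 0.0308) and, with a more positive effect at 72 h, Pde4b (0.56, adjusted p = 0.01).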

How the results depend on the processing

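Nr4a1 and Nr4a3 at 24 h kept their direction in every alternative fit. Of 137 member values under settings other than leaving out 1 array, 129 kept their side of the threshold, 5 lost and 3 gained the call, and none changed direction. With array weights Nr4a2 at 24 h was 0.57 (adjusted p = 0.0174) and Nr4a1 between the MCAO groups -1.24. Without MCAO 24 h replicates 5 and 6, an alternative that for lists and correlations was chosen after seeing the data, Nr4a2 at 24 h was 0.59. With the receptor component Nr4a3 was 0.72 at 24 h, -1.004 for the difference of effects and -0.55 between the MCAO groups, and Nr4a1 -1.51 between them. At 24 h Nr4a1 was 2.77 and Nr4a2 0.95 with that component. It nearly coincides with the MCAO 24 h group, so this fit cannot separate the component from the group. With genes of mean under 5 left out, Nr4a1 at 72 h, still 0.94, was called (adjusted p = 0.0475), 8306 genes being tested, and Nr4a2 and Nr4a3 had no value. The cause of the other changes was not tested.

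Leaving out 1 array at a time gave 0.20 to 0.48 for Nr4a2 at 24 h, 0.72 to 1.22 for Nr4a1 at 72 h and -1.66 to -1.16 for its difference of effects. It also moved uncalled values by over 1.5 times: Nr4a3 at 72 h ran from -0.36 (without sham 72 h replicate 2) to -0.13 (without its replicate 6), Nr4a1 between the shams from 0.0081 (without sham 72 h replicate 6) to 0.51 (without its replicate 1), and, each without MCAO 24 h replicate 5 or 3, Nr4a2 from -0.33 to -0.054 for the difference of effects and from -0.41 to -0.13 between the MCAO groups. Nr4a2 between the shams ran from -0.14 to -0.023 (without sham 24 h replicate 4 or 5). Counts of all genes called then ran from 197 (without MCAO 72 h replicate 3) to 1012 (without MCAO 24 h replicate 1) for the difference of effects, from 1 to 6 between the shams and from 1615 to 3455 between the MCAO groups. At 24 h the count was 2194 with only the groups compared, 2361 without dim genes, 3259 with array weights and 319 with the receptor component. At 72 h it was 1410 with only the groups compared, 1905 with weights and 1103 without replicates 5 and 6. For the difference of effects it was 118 without dim genes, 5 with the receptor component and 1079 without replicates 5 and 6. Between the shams it was 1 with only the groups compared, 3 without dim genes and 27 with weights, and between the MCAO groups 848, 700 and 1408 in that order and 20 with the receptor component.

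The replicate numbers do not pair the arrays. With the replicate number as a block the count between the shams was 1, and at 24 h Nr4a1, Nr4a2 and Nr4a3 had adjusted p = 0.000145, 0.0591 and 0.00114; no call of a member changed.

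Among correlations, Nr4a1 and Nr4a2 had r = -0.51 within sham 72 h, -0.0626 within MCAO 72 h, -0.0515 without replicates 5 and 6 and -0.0610 to 0.123 with 1 array left out. Nr4a1 and Nr4a3 had r = -0.40 within MCAO 24 h, 0.92 within sham 72 h, 0.75 without replicates 5 and 6 and 0.26 to 0.57 with 1 array left out, passing without MCAO 24 h replicate 2 (0.54) or 6 (0.57). Nr4a2 and Nr4a3 had r = 0.30 within MCAO 72 h and 0.0456 without replicates 5 and 6.

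Without replicates 5 and 6, 24.4% of all genes were called at 24 h and 4.59% at 72 h. The genes called higher and lower at 24 h were then 0 and 7 of the upstream genes, 9 and 5 of the immediate-early genes, 2 and 6 of the metabolic targets, 1 and 1 of the catecholamine targets and 4 and 9 of the other nuclear receptors. At 72 h they were 1 and 1, 5 and 0, 3 and 4, 0 and 0, and 2 and 1.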

Other observations

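With the group means removed, the genes whose deviations over the 24 arrays were most like those of Nr4a1 were Sik1 (r = 0.69), Oit3 (0.62), the immediate-early gene Fos (0.61), Ighg2c (0.60) and Pcolce2 (0.59). Sik1 was thus in both lists of Nr4a1. Fos was not called at either time (-0.28, SE 0.14, at 24 h). For Nr4a2 they were Sfi1 (0.80), Trav6d-4 (0.77), Nme7 (0.77), Ccdc58 (0.76) and Aldh1b1 (0.76), none of which was in its list over all arrays. For Nr4a3 they were Fam219b (0.82), Ptrhd1 (0.79), Il17c (0.79), Rrp1b (0.78) and Kptn (0.77), of which Kptn was in both. These values describe 24 arrays, of which MCAO 24 h replicates 5 and 6 stood apart.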
